A study of Mus musculus with 8 samples.

Results

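Genes of the heat shock response and of its cold counterpart were followed in mouse cortex, namely the chaperone genes *Hspa1a*, *Hspa1b*, *Hspa8*, *Hsp90aa1*, *Hsph1*, *Dnajb1*, *Hspb1*, *Cryab* and *Hspd1* and the cold-inducible *Cirbp*. Every probe set of the array whose annotation gives 1 of these symbols was taken, which found all 10 genes among the 8251 genes named on the array, with 13 probe sets among 12422. The genes were chosen by what earlier fits of these same signals had shown for the differences between times and between genotypes, so their levels and differences are given as descriptions. The samples were cortex of individual mice of the C57/bl6 strain, 4 months old by the labels, kept in a light-dark cycle, with 1 Affymetrix array per mouse. There were 2 S1/2-/- mice at ZT16, 2 S1/2-/- mice at ZT4, 2 WT mice at ZT16 and 2 WT mice at ZT4, 8 arrays in all. S1/2-/- mice are double null mutants for SHARP1 and SHARP2, both repressors of transcription that act on E-box elements and belong to the wider circadian clock. The labels name no further allele and no treatment in either genotype, and by the methods both came from breeding of double heterozygous mice. Zeitgeber time (ZT) counts hours from lights on, so ZT4 lies in the light phase, when mice mostly sleep, and ZT16 in the dark phase, when they are mostly active. The design asks how cortical gene expression changes between the 2 times of day in each genotype.

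Chaperones of the HSP70 family bind stretches of unfolded protein and release them in a cycle driven by ATP, which J-domain proteins such as DNAJB1 start and nucleotide exchange factors such as HSPH1 complete. HSP90 takes over clients that are nearly folded, small heat shock proteins hold unfolding proteins in a soluble state, and HSPD1 folds proteins inside mitochondria. Heat shock factor 1 drives the inducible genes of the group through heat shock elements, whereas the RNA-binding protein CIRBP is made in larger amounts when cells are mildly cooled. In rodents body and brain temperature rise with activity and fall with sleep, and both kinds of genes are known to follow daily temperature cycles in several tissues.

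*Hspa1a* and *Hspa1b* are neighbouring genes on chromosome 17 that encode nearly the same inducible HSP70 protein, so the stretches just before their starts are shown to let their control regions be compared. The sequences are those of RefSeq on GRCm38.p6, which has an entry for 7 of the 10 genes, with 11 annotated starts, each as a window of 250 bases before and 50 bases after the start. *Hspa8*, *Hsp90aa1* and *Cryab* had no entry. The 250 bases before the start of each gene are printed 5′ to 3′, with the windows at chr17:34972157-34972406 (*Hspa1a*) and chr17:34959239-34959488 (*Hspa1b*), both on the minus strand and 12918 bases apart. Capitals mark GAANNTTC, a pair of heat shock units facing inward, and GGCGGGGA, which is TCCCCGCC on the other strand, the letters of the mild cold response element described for *Cirbp*.
Hspa1a: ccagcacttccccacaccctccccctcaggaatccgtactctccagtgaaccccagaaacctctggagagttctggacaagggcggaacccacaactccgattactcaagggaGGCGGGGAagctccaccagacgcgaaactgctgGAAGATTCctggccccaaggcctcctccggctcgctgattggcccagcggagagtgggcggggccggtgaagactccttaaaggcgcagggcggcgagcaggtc
Hspa1b: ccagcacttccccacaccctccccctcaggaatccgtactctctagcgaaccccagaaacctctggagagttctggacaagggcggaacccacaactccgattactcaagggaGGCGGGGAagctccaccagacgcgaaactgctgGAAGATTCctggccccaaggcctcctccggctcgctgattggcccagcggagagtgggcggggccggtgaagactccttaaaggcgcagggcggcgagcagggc

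Over the whole windows the 2 genes differed at 4 of 300 positions and were 98.7% identical. With positions counted from 1 at the 5′ end of the window, and the base of *Hspa1a* first, the differences were C44T, T47C and T249G before the start and C276T after it. None of them touches the marked motifs, which began 104 bases (heat shock pair) and 137 bases (cold element letters) before the start in both genes.

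The heat shock motifs of 3 other members are shown because they differ in how many units stand in a row. Capitals mark heat shock units in pairs, either GAANNTTC or TTCNNGAA.
Hspd1, second start, chr1:55088053-55088082, minus strand: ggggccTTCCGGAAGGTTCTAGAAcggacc
Hspb1, chr5:135887789-135887838, plus strand: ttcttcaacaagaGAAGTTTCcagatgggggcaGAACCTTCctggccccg
Hsph1, first start, chr5:149636347-149636396, minus strand: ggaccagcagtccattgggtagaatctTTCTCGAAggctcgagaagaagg
The mitochondrial *Hspd1* had an unbroken row beginning 144 bases before its second start, *Hspb1* had 2 separate inward pairs at 117 and 97 bases before the start, and *Hsph1* had 1 outward pair at 33 bases before its first start and a row of units that began 37 bases after it. Both strands were searched, and the inward and outward pairs overlap within a row. GAANNTTC was found in 7.86% and TTCNNGAA in 8.52% of all 32851 promoter windows, either of them in 15.1%, and 3 units in a row, alternating in direction, in 0.603%.

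The cold element letters TCCCCGCC were found in 5.38% of all windows. They stood in *Cirbp* 247 bases before the first start, in both *Hspa1* genes as above, and in *Dnajb1* 35 bases after the second start. For *Cirbp* the stretch is shown with these letters in capitals.
Cirbp, first start, chr10:80167589-80167638, plus strand: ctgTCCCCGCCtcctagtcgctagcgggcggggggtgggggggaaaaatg
The E-box CACGTG, the element that SHARP proteins bind, was present in 7.15% of all windows. Among the members it was found in *Hsph1*, 3 bases after the first start, and in *Hspd1*, 80 bases before the first start. A match of letters is a description of the sequence and no evidence of binding, and a window without a match says nothing about regions outside it.

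**Figure D1:**
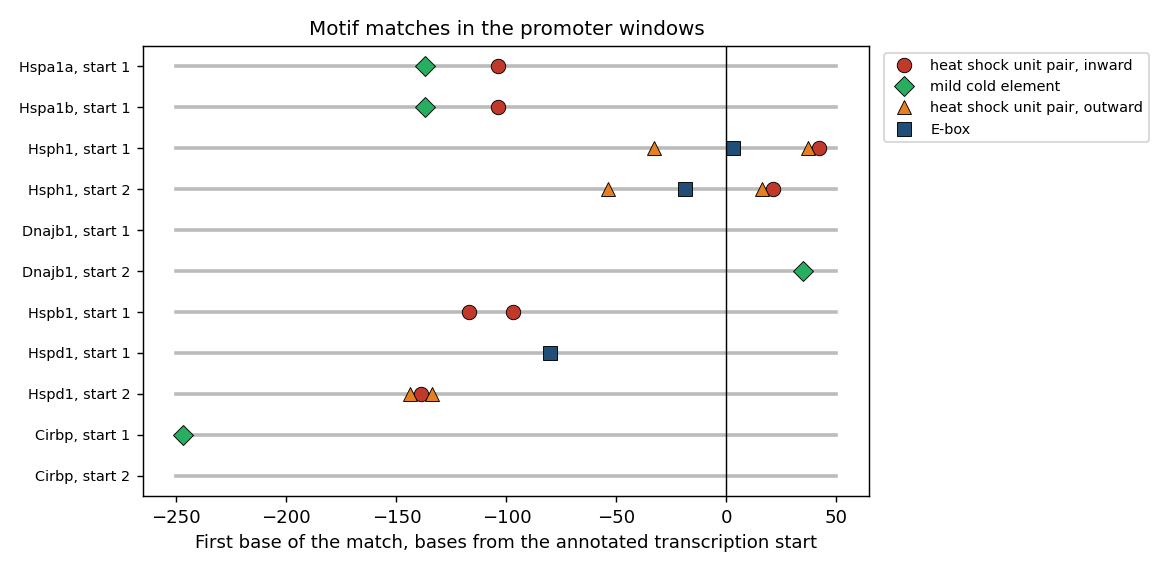
Motif matches in the promoter windows of 7 member genes with 11 annotated starts (RefSeq). The horizontal axis gives the first base of each match in bases from the transcription start, each row is 1 start, and the symbols stand for the inward and outward heat shock unit pairs, the E-box and the mild cold element letters. *Hspa1a* and *Hspa1b* carry the same 2 matches at the same distances.

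The arrays were alike in overall signal, with medians of 186 to 206 and a correlation of log2 signals of 0.936 to 0.940 between the mice of a group. Neuronal *Snap25* gave signals of 35071 to 39059 in S1/2-/- mice and 40403 to 46756 in WT mice, without overlap, as for 3.74% of tested probe sets in this direction. The cortical *Tbr1* gave 7146 to 8634 against 5667 to 7798, with overlap. Summed signals of 8 neuronal genes, to which *Snap25* contributed most, were 72418 to 76275 in S1/2-/- mice and 76205 to 83356 in WT mice. The single genes had no steady direction. At ZT4 7 of the 8 were lower in S1/2-/- than in WT cortex (median log2 difference -0.10). At ZT16 7 were higher (median 0.04) and only *Snap25* was lower. For 6 genes of cortical excitatory neurons the sums were 14503 to 16259 against 11307 to 14389, without overlap. The *Bhlhe40* (SHARP2) probe set gave 889 to 1043 and 834 to 913 in S1/2-/- mice at ZT16 and ZT4, against 1189 to 1285 and 983 to 1074 in WT mice. No source used here places its probes inside or outside the deletion, so they check no label. Summed signals of marker lists of other cells and tissues were also uneven. For 13 oligodendrocyte genes the sum was 34435 to 36710 in S1/2-/- mice at ZT16 and 37535 to 38087 at ZT4, against 31663 to 31848 in WT mice at ZT16 and 24476 to 26863 at ZT4. For 7 choroid plexus genes it was 1618 to 1632 and 1968 to 3648 in S1/2-/- mice at ZT16 and ZT4, against 4654 to 5113 and 1529 to 1575 in WT mice, and for 4 striatal genes 6874 to 11559 and 8869 to 13421, against 9900 to 14295 and 3754 to 4308. In such bulk tissue fewer cells of a type and less RNA per cell cannot be told apart.

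Of the 13 probe sets, 10, for 9 of the 10 genes, were above the filter on low signals and were fitted with all 7453 such probe sets. A call required an adjusted p under 0.05 in limma together with a fold over 1.5. One member, *Hspa1a*, was called, in the comparison of S1/2-/- with WT cortex averaged over both times, where 19 probe sets or 0.255% of those tested were called in either direction and 3 or 0.0403% in the lower direction. No member was called in the other comparisons, in which the share of calls among all probe sets was 0% for ZT16 against ZT4 in S1/2-/- cortex, 0.0134% for the same in WT cortex, 0% for the difference of these changes, 0.0939% for S1/2-/- against WT at ZT4, 0.0134% for the same at ZT16 and 0% for ZT16 against ZT4 over both genotypes. At an unadjusted p under 0.05 in limma the members numbered 1 of 10 (7.31% of all tested) for the time change in S1/2-/- cortex, 4 of 10 (7.61%) for that in WT cortex, 1 of 10 (5.69%) for their difference, 3 of 10 (7.29%) for the genotypes at ZT4, 3 of 10 (10.9%) at ZT16, 2 of 10 (12.4%) over both times and 4 of 10 (9.38%) for the time change over both genotypes. Mice of the groups compared did not overlap, in either direction, for 5 of 10 members in the S1/2-/- time change (41.4% of all tested), 7 of 10 in the WT time change (36%), 5 of 10 between the genotypes at ZT4 (39.4%), 4 of 10 at ZT16 (42%), 1 of 10 between the genotypes over both times (7.18%) and 2 of 10 between the times over both genotypes (5.06%). The median of the 10 log2 differences lay between -0.13 and 0.04 in all 7 comparisons, with medians over all tested probe sets between -0.004 and 0.01.

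*Hspa1a* was lower in S1/2-/- cortex at both times. Its signal was 296 and 308 in the S1/2-/- mice at ZT16, against 577 and 625 in the WT mice at ZT16. At ZT4 the signal was 250.04 and 248 in the S1/2-/- mice, against 477 and 530.3 in the WT mice. All 4 mutant values lay below all 4 WT values, which was so for 3.74% of all tested probe sets. The log2 difference between S1/2-/- and WT was -0.99 ± 0.17 at ZT16 and -1.01 ± 0.17 at ZT4 (SE from the fit). Over both times the signal was 2.01-fold lower, with an SE of 0.12 on the log2 scale (95% interval -1.28 to -0.73, adjusted p = 0.0127 in limma). That difference lay between -1.04 and -0.97 when single arrays were left out. The call was less stable than the difference, since the adjusted p was 0.0531 to 0.0622 without any 1 of 6 arrays, that is each of the 4 S1/2-/- arrays and the 2 WT arrays of ZT4, and 0.0103 and 0.0412 without the WT arrays of ZT16. In both genotypes *Hspa1a* was slightly higher at ZT16 than at ZT4, by 0.28 ± 0.17 in S1/2-/- and 0.26 ± 0.17 in WT cortex on the log2 scale, without passing the test (adjusted p = 0.759 and 0.724). The times did not overlap, as in 21% of tested probe sets for S1/2-/- and 17.9% for WT cortex in this direction.

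*Hspa1b*, its near copy, varied more between times and between mice. The S1/2-/- mice had signals of 632 and 265 at ZT16, against 169.9 and 195 at ZT4. The WT mice had 494 and 721 at ZT16, against 326 and 367 at ZT4. In each genotype both dark-phase values were above both light-phase values, as in 21% of tested probe sets for S1/2-/- and 17.9% for WT cortex in the higher direction. The log2 time difference was 1.17 ± 0.36 in S1/2-/- cortex (95% interval 0.37 to 1.97, adjusted p = 0.539) and 0.79 ± 0.36 in WT cortex (-0.01 to 1.59, adjusted p = 0.641). The 2 mutant mice of ZT16 set the first of these values. It was 0.54 without the mouse at 632 and 1.80 without the mouse at 265, while in WT cortex it lay between 0.51 and 1.06 when single arrays were left out. The mutant change minus the WT change was 0.38 ± 0.51 (adjusted p = 0.938), and its sign turned to -0.24 without the mutant mouse at 632. Between the genotypes *Hspa1b* was lower in S1/2-/- cortex by 0.93 ± 0.36 at ZT4 on the log2 scale, without overlap (adjusted p = 0.605), as 19.9% of tested probe sets were in this direction. At ZT16 the log2 difference was -0.54 ± 0.36 with overlapping values (adjusted p = 0.597), and it was -1.17 without the mutant mouse at 632 and 0.08 without the mouse at 265.

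Side by side, the 2 genes thus shared the lower level in S1/2-/- cortex at ZT4, while the size of the time difference was larger for *Hspa1b* in both genotypes, a contrast that was not tested. As the genes are read by different probe sets, their levels were not set against each other, and only the change of their ratio is given. The log2 ratio of *Hspa1b* to *Hspa1a* was 0.89 higher at ZT16 than at ZT4 in S1/2-/- cortex and 0.53 higher in WT cortex. The ratios of all 4 mice of ZT16 lay above those of all 4 mice of ZT4, the mutant mouse at 632 having by far the highest. Since the transcripts are nearly identical and the probe sequences were not used here, how far each probe set also reads the other gene is unknown.

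**Figure D2:**
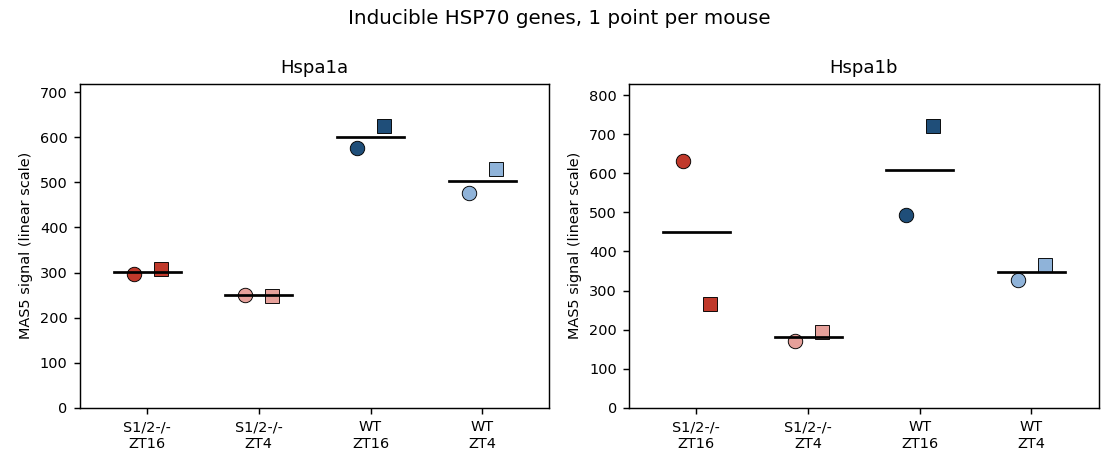
MAS5 signals of *Hspa1a* and *Hspa1b* on a linear scale, with 1 point per mouse (circles replicate 1, squares replicate 2) and a bar at the mean of the 2 mice. For *Hspa1a* the 4 S1/2-/- mice sit between 248 and 308 and the 4 WT mice between 477 and 625, whereas for *Hspa1b* the 2 S1/2-/- mice of ZT16 lie apart at 632 and 265.

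The constitutive HSP70, *Hspa8*, which clears clathrin coats and folds new proteins in every cell, was nearly level across the groups. It gave 8917 and 8418 in S1/2-/- mice at ZT16 and 9308 and 8581 at ZT4, against 8406 and 10265 in WT mice at ZT16 and 10186 and 8766 at ZT4. All groups overlapped, and the log2 difference between the genotypes was -0.09 ± 0.08 over both times (95% interval -0.27 to 0.09). The time difference was -0.04 ± 0.11 in S1/2-/- and -0.02 ± 0.11 in WT cortex.

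Of the partners of HSP70, *Dnajb1*, a J-domain protein induced together with HSP70 by heat shock, was higher at ZT16. Its signal was 1107 and 939.7 in S1/2-/- mice at ZT16, against 802 and 897 at ZT4, and 1152 and 1133 in WT mice at ZT16, against 813 and 904 at ZT4. Every value of ZT16 was above every value of ZT4, as for 2.78% of tested probe sets in this direction. The log2 time difference was 0.27 ± 0.14 in S1/2-/- and 0.41 ± 0.14 in WT cortex, and 0.34 ± 0.10 over both genotypes (adjusted p = 0.378). The genotypes differed little, with log2 differences of -0.16 ± 0.14 at ZT16 and -0.02 ± 0.14 at ZT4.

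*Hsph1*, which encodes the HSP110 nucleotide exchange factor, did not share this pattern. The signal was 4199 and 3575 in S1/2-/- mice at ZT16, against 3786 and 3485 at ZT4, with overlap. It was 3439 and 3059 in WT mice at ZT16, against 3932 and 3551 at ZT4, without overlap, as in 18% of tested probe sets in this direction. The log2 time difference was 0.09 ± 0.11 in S1/2-/- and -0.20 ± 0.11 in WT cortex. At ZT16 both mutant values were thus above both WT values, by 0.26 ± 0.11 on the log2 scale (adjusted p = 0.452), as in 21% of tested probe sets, and at ZT4 the log2 difference was -0.04 ± 0.11.

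*Hsp90aa1*, the inducible cytosolic HSP90, gave 11341 and 12233 in S1/2-/- mice at ZT16 and 12685 and 11747 at ZT4, against 11680 and 14883 in WT mice at ZT16 and 15889 and 11738 at ZT4. The 2 WT mice of each time differed by more than the group means did, and the log2 difference between genotypes was -0.16 ± 0.10 over both times (95% interval -0.39 to 0.07, adjusted p = 0.557). A second probe set with fewer probes lay below the filter, with 18.1 and 71.2 in S1/2-/- mice at ZT16 and 7.03 and 35.4 at ZT4, against 46.1 and 76.4 in WT mice at ZT16 and 45.0 and 44.8 at ZT4. Its genotypes overlapped at ZT16 but not at ZT4 (log2 difference -1.51 ± 0.93), where 19.9% of tested probe sets did not overlap in this direction.

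*Hspd1*, the HSP60 of mitochondria, was lower at ZT16. Its main probe set gave 2881 and 2644 in S1/2-/- mice at ZT16, against 2999 and 3380.4 at ZT4, and 2905 and 2495 in WT mice at ZT16, against 3103 and 3373 at ZT4. All 4 values of ZT16 were below all 4 values of ZT4, as for 2.28% of tested probe sets in this direction. The log2 time difference was -0.21 ± 0.12 in S1/2-/- and -0.26 ± 0.12 in WT cortex, and -0.24 ± 0.08 over both genotypes (adjusted p = 0.417). The genotype difference of this probe set over both times was 0.01 ± 0.08 on the log2 scale. A second probe set, for which the manufacturer dropped some rules of probe selection, gave 364 and 199 in S1/2-/- mice at ZT16 and 224 and 272 at ZT4, against 237 and 101 in WT mice at ZT16 and 209 and 219.7 at ZT4, and overlapped between the times in both genotypes. Its log2 genotype difference was 0.50 ± 0.30 over both times (adjusted p = 0.521 in limma) and 0.80 ± 0.42 at ZT16, both with overlap. At ZT4 it was 0.21 ± 0.42 without overlap, as in 19.5% of tested probe sets in this direction.

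**Figure D3:**
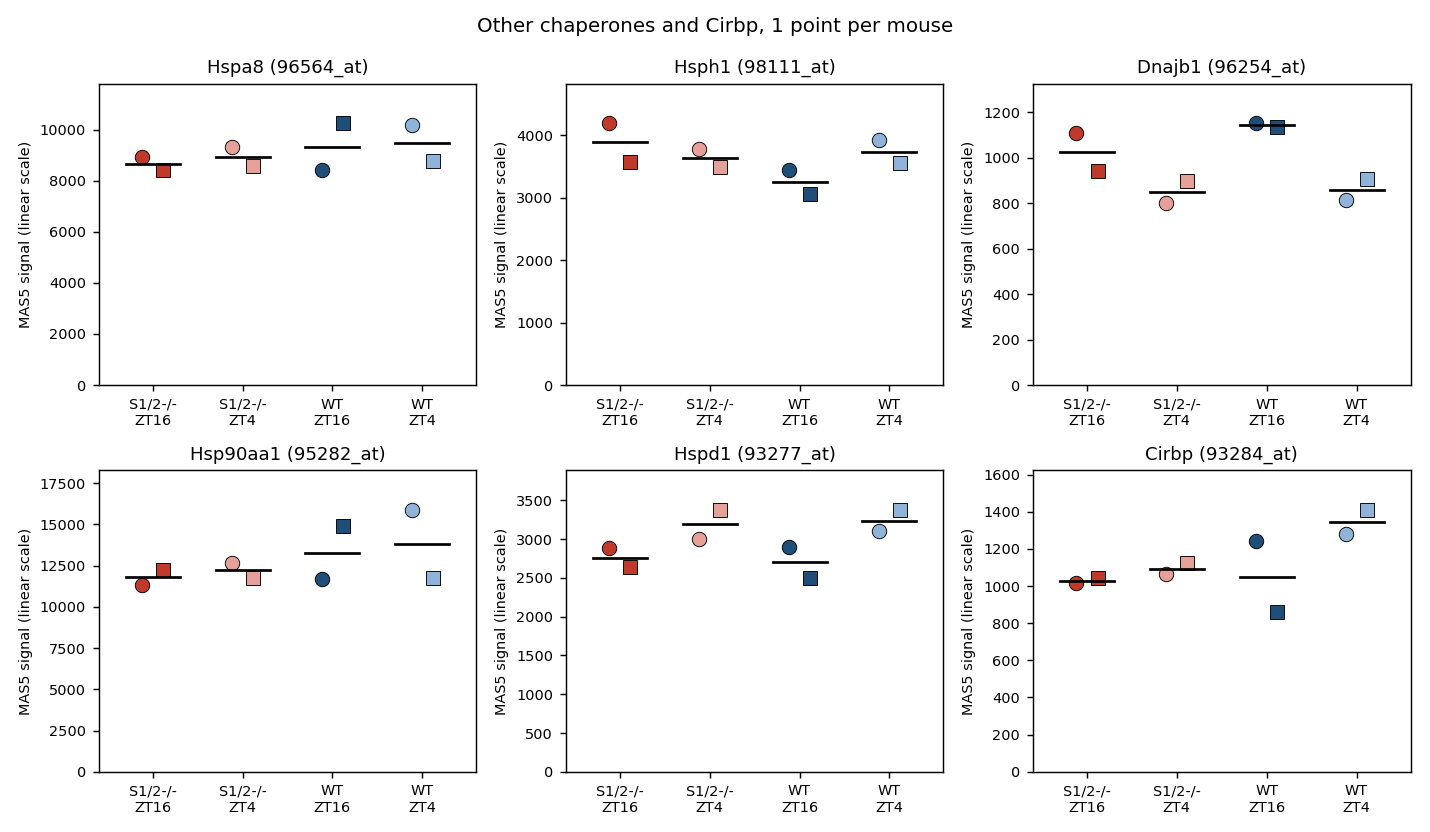
MAS5 signals on a linear scale of *Hspa8*, *Hsph1*, *Dnajb1*, *Hsp90aa1*, *Hspd1* and *Cirbp*, with 1 point per mouse (circles replicate 1, squares replicate 2) and a bar at the mean of 2 mice. *Dnajb1* is at 939.7 or more in every mouse of ZT16 and at 904 or less in every mouse of ZT4, *Hspd1* is lower in every mouse of ZT16, and *Cirbp* has a low WT mouse of ZT16 at 858.

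Among the small heat shock proteins, *Cryab* had the genotype difference that turned between the times. Cryab (αB-crystallin) is known to be made in oligodendrocytes and astrocytes of the brain, as well as in lens and muscle. Its stronger probe set gave 436 and 357 in S1/2-/- mice at ZT16, against 555 and 568 in WT mice at ZT16. At ZT4 it gave 473 and 431 in S1/2-/- mice, against 298 and 309 in WT mice. The WT mice of ZT16 were thus the highest and those of ZT4 the lowest, with the S1/2-/- mice of both times between them. The log2 genotype difference was -0.51 ± 0.18 at ZT16 (adjusted p = 0.365) and 0.57 ± 0.18 at ZT4 (adjusted p = 0.456). The time difference was -0.19 ± 0.18 in S1/2-/- and 0.89 ± 0.18 in WT cortex (adjusted p = 0.848 and 0.217), and the difference of these changes was -1.08 ± 0.25 (95% interval -1.64 to -0.52, adjusted p = 0.465).

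The marker lists of oligodendrocytes, choroid plexus and striatum moved with *Cryab* in whole or in part. The choroid plexus sums had its order, with the WT mice of ZT16 highest, those of ZT4 lowest and the S1/2-/- mice between them. Only 2 of the 7 genes were above the filter, and the S1/2-/- sums of ZT16 (1618 and 1632) lay close to the WT sums of ZT4 (1529 and 1575). The marker *Ttr* alone did not have this order, with 102 and 150 in S1/2-/- mice at ZT16 against 83.2 and 331 in WT mice at ZT4. The 3 tested striatal genes shared its time pattern in part. All 3 were higher at ZT16 in WT cortex (median log2 time difference 1.58). In S1/2-/- cortex 2 were lower and 1 was higher at ZT16 (median -0.29). The median difference of these changes was -1.89 (0 called). The summed striatal signal overlapped between S1/2-/- mice and WT mice of ZT16, unlike *Cryab*. For oligodendrocytes the summed signal was lowest in the WT mice of ZT4, as for *Cryab*, but highest in the S1/2-/- mice, where *Cryab* was not. Of 10 tested oligodendrocyte genes, 10 were higher at ZT16 in WT cortex (median log2 difference 0.36, 0 called) and 4 were higher at ZT16 in S1/2-/- cortex (median -0.06). The sum of 15 immediate early genes also had the order of *Cryab*. It was 13308 to 15864 in WT mice of ZT16, 8738 to 11417 in S1/2-/- mice and 6154 to 8176 in WT mice of ZT4. Sums of cortical excitatory genes and of 8 endothelial genes did not, as all S1/2-/- mice lay above all WT mice. For the endothelial genes the sum was 2559 to 3116 in S1/2-/- mice and 2394 to 2552 in WT mice. The sum of 9 astrocyte genes did not have the order of *Cryab* either. It was 16837 to 19997 in WT mice of ZT16, 18192 to 20092 in S1/2-/- mice and 17378 to 18600 in WT mice of ZT4. The part of these lists in the *Cryab* differences was not tested. The second *Cryab* probe set lay below the filter, with 59.3 and 12.8 in S1/2-/- mice at ZT16 and 30.0 and 76.7 at ZT4, against 18.4 and 24.5 in WT mice at ZT16 and 67.7 and 49.8 at ZT4, so that its WT values ran the other way (log2 time difference -1.45 ± 0.85). The suffix of the stronger probe set marks probes shared within a gene family, and the 2 probe sets disagree on the direction in WT cortex. *Hspb1* (HSP27), which is induced by stress in glia and neurons, was at or near background, with signals of 33.1 and 4.01 in S1/2-/- mice at ZT16 and 30.6 and 14.8 at ZT4, against 11.5 and 22.8 in WT mice at ZT16 and 31.8 and 33.2 at ZT4. The 10th percentile of all signals on an array was 15.2 to 17.4, and no difference could be read at this level.

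**Figure D4:**
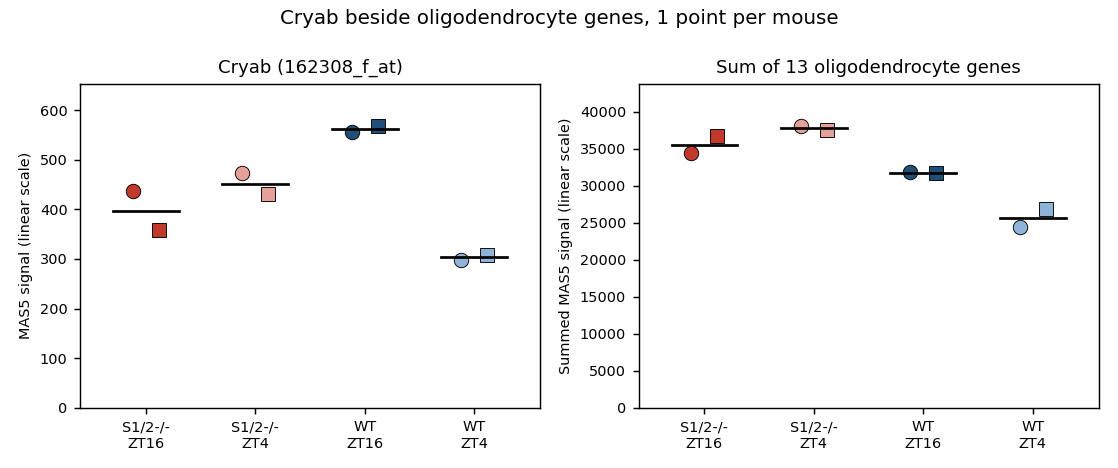
MAS5 signal of *Cryab* (stronger probe set) and summed MAS5 signal of 13 oligodendrocyte genes, both on a linear scale, with 1 point per mouse (circles replicate 1, squares replicate 2) and a bar at the mean of 2 mice. WT mice of ZT4 are lowest in both panels, at 298 and 309 for *Cryab*, while the highest values belong to WT mice of ZT16 for *Cryab* and to S1/2-/- mice for the markers.

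*Cirbp*, the cold-inducible RNA-binding protein, was lower at ZT16 than at ZT4, most in WT cortex. The S1/2-/- mice gave 1016 and 1041 at ZT16, against 1067 and 1122 at ZT4. The WT mice gave 1245 and 858 at ZT16, against 1278 and 1411 at ZT4. The times did not overlap in either genotype, as in 20.4% of tested probe sets for S1/2-/- and 18% for WT cortex in the lower direction. The log2 time difference was -0.09 ± 0.17 in S1/2-/- and -0.38 ± 0.17 in WT cortex (adjusted p = 0.937 and 0.641). The WT value rested largely on 1 mouse, as it was -0.11 without the WT mouse at 858 and -0.65 without the one at 1245. The difference of these changes was 0.29 ± 0.24 on the log2 scale (adjusted p = 0.912). Between the genotypes the log2 difference was -0.01 ± 0.17 at ZT16, with overlap, and -0.30 ± 0.17 at ZT4 (adjusted p = 0.752). At ZT4 both mutant values were below both WT values, as in 19.9% of tested probe sets.

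Over the 8 arrays the heat-induced *Hspa1b* and the cold-induced *Cirbp* had a Pearson correlation of log2 signals of -0.27, which turned to 0.17 without the WT mouse of ZT16 with the low *Cirbp* value, so that no opposite course could be read from these arrays. The 5 genes whose log2 signals ran most like *Hspa1b* over the 8 arrays were *Fzd9* (r = 0.96), *Cyb561* (0.95), *Tmem38b* (0.95), *Gnptg* (0.93) and *Pcsk1n* (0.93). For *Cirbp* they were *Sec22b* (r = 0.96), *Adam10* (0.96), *Mettl1* (0.95), *Thrap3* (0.95) and *Aldh18a1* (0.95). *Fzd9*, a Wnt receptor, gave 298 and 180.1 in S1/2-/- mice at ZT16 and 167 and 160.1 at ZT4, against 232 and 271 in WT mice at ZT16 and 197 and 231 at ZT4. Among the S1/2-/- mice the same mouse was highest as for *Hspa1b*, while over all mice *Hspa1b* was highest in a WT mouse of ZT16. *Sec22b*, a SNARE of the early secretory pathway, gave 1052 in the WT mouse with the low *Cirbp* value and 1195 to 1520 in the others. These are the highest values among the tested probe sets with 1 symbol, and they describe these arrays.

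**Figure D5:**
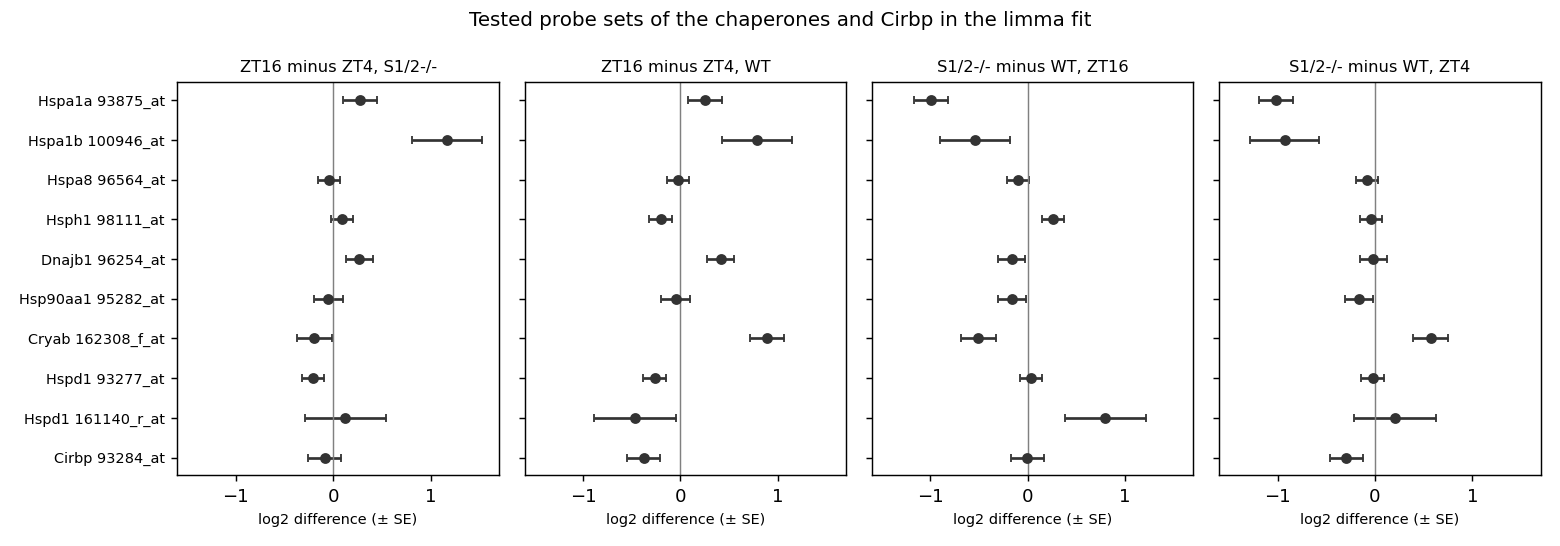
Log2 differences (points) with their SE (bars) from the limma fit for the 10 tested member probe sets, in 4 panels for ZT16 minus ZT4 in S1/2-/- and in WT cortex and for S1/2-/- minus WT at ZT16 and at ZT4. *Hspa1a* lies near -1 in both genotype panels, *Hspa1b* lies to the right in both time panels, and *Cryab* changes sides between the genotype panels.

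Beyond the members, 95 other chaperone and temperature-response genes were listed, of which 68 were on the array and 62 were tested. None was called in any of the 7 comparisons by limma, and those with an unadjusted p under 0.05 numbered 5 of 62 (7.31% of all tested probe sets) for the time change in S1/2-/- cortex, 3 (7.61%) for that in WT cortex, 1 (5.69%) for their difference, 2 (7.29%) for the genotypes at ZT4, 5 (10.9%) at ZT16, 8 (12.4%) over both times and 9 (9.38%) for the time change over both genotypes. Their median log2 difference was -0.04 for the time change in S1/2-/- cortex, -0.04 for that in WT cortex, -0.07 for the genotypes at ZT16 and -0.05 at ZT4. The list therefore moved little as a whole, and the genes named here are the 3 with the largest statistic in each comparison.

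Among the J-domain proteins, 16 of 24 listed genes were tested and their median log2 difference between the genotypes over both times was -0.07. *Dnajb5*, a relative of *Dnajb1*, gave 561 and 702 in S1/2-/- mice at ZT16 and 383 and 338 at ZT4, against 395 and 467 in WT mice at ZT16 and 502 and 299 at ZT4. Its time difference in S1/2-/- cortex was 0.80 ± 0.25 on the log2 scale (adjusted p = 0.539), and the WT mice of ZT4 spanned their ZT16 values. *Dnajb9*, a J-domain protein of the endoplasmic reticulum induced when unfolded proteins build up there, was 0.42 ± 0.18 higher in S1/2-/- than in WT cortex at ZT4 on the log2 scale (adjusted p = 0.641). *Dnajc5*, the cysteine string protein of synaptic vesicles, had a log2 time difference of -0.54 ± 0.22 in WT cortex (adjusted p = 0.625). Its WT signals were 847 and 529 at ZT16, against 877 and 1084 at ZT4, and the mouse at 529 is the one with the low *Cirbp* value. *Dnajc8* was -0.37 ± 0.12 at ZT16 between S1/2-/- and WT cortex on the log2 scale (adjusted p = 0.365). It gave 2956 and 3029 in S1/2-/- mice at ZT16, against 3387 and 4429 in WT mice, the latter again in the mouse with the low *Cirbp* value. *Dnajc7*, which binds both HSP70 and HSP90, had a log2 difference of -0.20 ± 0.10 between the genotypes at ZT4 (adjusted p = 0.732).

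Of the chaperonins and mitochondrial chaperones, 17 of 19 listed genes were tested. In 15 of the 17 the mean was lower in S1/2-/- than in WT cortex over both times, where 3696 of all 7453 were lower. The median log2 difference was -0.09. An unadjusted p under 0.05 was found for 3 of the 17, against 12.4% of all tested probe sets. This was the most one-sided of the lists, and its direction was not tested as a set. In the same comparison 11 of 16 J-domain proteins, 5 of 12 HSP90 co-chaperones and 3 of 6 HSP70 and HSP110 relatives were lower. So were 2 of 4 BAG proteins and heat shock factor partners, 1 of 3 small heat shock proteins and 3 of 4 cold-responsive RNA-binding proteins. *Cct4*, a subunit of the cytosolic chaperonin that folds actin and tubulin, gave 1302 and 1452 in S1/2-/- mice at ZT16, against 1705 and 2051 in WT mice at ZT16. At ZT4 it gave 1649 and 1402 in S1/2-/- mice, against 1732 and 1567 in WT mice. The log2 difference was -0.44 ± 0.14 at ZT16 (adjusted p = 0.345) and -0.28 ± 0.10 over both times (adjusted p = 0.300). *Clpp*, the protease of the mitochondrial matrix, was -0.37 ± 0.13 at ZT16 (adjusted p = 0.376).

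Of the HSP90 co-chaperones 12 of 18 were tested, with a median log2 genotype difference of 0.05 over both times. *Chordc1*, a co-chaperone of HSP90 that is itself induced by heat, followed the course of *Dnajb1*. It gave 979 and 967 in S1/2-/- mice at ZT16, against 694 and 842 at ZT4, and 925 and 958 in WT mice at ZT16, against 698 and 799.7 at ZT4. Its log2 time difference was 0.34 ± 0.10 over both genotypes (adjusted p = 0.402). Of the HSP70 and HSP110 relatives 6 of 10 were tested. *Hspa2* gave 525 and 646 in S1/2-/- mice at ZT16 and 458 and 499 at ZT4, against 615 and 232 in WT mice at ZT16 and 648 and 612 at ZT4, so that 1 WT mouse of ZT16 stood apart. The difference of its time changes was 1.02 ± 0.50 on the log2 scale (adjusted p = 0.875).

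Of the BAG proteins and partners of heat shock factors 4 of 10 were tested. *Bag6*, which guards proteins bound for membranes, gave 1365 and 1149.7 in S1/2-/- mice at ZT16 and 1109 and 1436 at ZT4, against 1096 and 767 in WT mice at ZT16 and 912 and 931 at ZT4. All mutant values were above all WT values, as in 3.43% of tested probe sets, by 0.45 ± 0.14 on the log2 scale (adjusted p = 0.257). *Bag2* was 0.38 ± 0.16 higher at ZT16 in S1/2-/- cortex (adjusted p = 0.644), and *Hsbp1*, which binds heat shock factor 1, had a log2 time difference of -0.31 ± 0.11 over both genotypes (adjusted p = 0.440). Of the small heat shock proteins 3 of 7 were tested, with a median log2 genotype difference of 0.04.

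Of the other cold-responsive RNA-binding proteins 4 of 7 were tested, and they had no common direction. In S1/2-/- cortex 3 were higher and 1 lower at ZT16 (median log2 difference 0.18), in WT cortex 1 was higher and 3 lower (median -0.11), and over both genotypes 1 in each direction had an unadjusted p under 0.05, where 9.38% of all tested probe sets did. *Srsf5*, a splicing factor listed here with the cold-responsive genes, was lower at ZT16. It gave 2116 and 2274 in S1/2-/- mice at ZT16, against 2722 and 2628 at ZT4, and 2407 and 2232 in WT mice at ZT16, against 3094 and 2709 at ZT4. All ZT16 values were below all ZT4 values, as for 2.28% of tested probe sets, by 0.30 ± 0.08 on the log2 scale over both genotypes (adjusted p = 0.340), and the log2 difference was -0.29 ± 0.11 in S1/2-/- and -0.32 ± 0.11 in WT cortex. *Srsf2*, another splicing factor and the only one of the 4 with higher means at ZT16 in both genotypes, had a log2 time difference of 0.23 ± 0.12 in S1/2-/- and 0.19 ± 0.12 in WT cortex (adjusted p = 0.705 and 0.716). It was named after its values were seen.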

How the data were processed

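The authors deposited 1 table of MAS5 signals, linear intensity values with 1 signal per probe set and array, for cortex RNA of 8 mice. The 2% trimmed mean of every deposited column is 500, so array scaling was part of the authors' work. The labels name Trizol for the RNA and the methods name columns. The version of MAS5 was not given. Gene names came from the platform annotation, in which 10833 of 12422 have 1 symbol, 396 several and 1193 none. Control probe sets (66) were removed, 64 signals under 1 were raised to 1, and log2 was taken. Testing was limited to the 7453 probe sets whose log2 signal averaged 6.79 or more, which is the 40th percentile. Members below the filter have their values from a fit without it.

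All arrays were fitted in limma 3.58.1 (R 4.3.3) as 4 group means with the variance trend, with 4 residual and 6.02 prior degrees of freedom, and p was adjusted by Benjamini-Hochberg over the tested probe sets of each comparison. A call needs a fold over 1.5 and an adjusted p under 0.05. For a gene in a list the probe set with the highest mean was taken. The members and lists were chosen with earlier results of these data known. From the other chaperone and temperature lists the 3 genes with the largest moderated statistic in each of the 7 comparisons are named, and for likeness the 5 highest Pearson correlations with *Hspa1b* and *Cirbp*. The fit was tested on simulated data. With 2 mice per group and 1 array each, the number of arrays limits the precision. The limma p-values rest on the spread between these mice, moderated by that of other probe sets of similar signal. As alternatives, the filter was dropped or set to the 60th percentile, arrays were normalized by quantiles or centred on the median, and the fit was repeated with a pseudocount of 16, no trend, ANOVA, the replicate number as a block, a fit of only the groups compared, and each array left out in turn. Same-numbered mice did not deviate together, so the numbers were not used as pairs.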

Additional observations from a re-analysis of the deposited data

Results flagged for a closer look

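Among the 10 tested member probe sets and the 62 other tested chaperone and temperature-response genes, 4 genes showed opposite directions. In these 4 the mice moved without overlap under the same contrast in the 2 genotypes or at the 2 times. Such a pattern occurred in 623 of the 7453 tested probe sets, or 8.36%, and the test of the difference itself passed in none of the 4 in limma. The mutant time change minus the WT time change was -1.08 for *Cryab* (stronger probe set, adjusted p = 0.465), with values of 436 and 357 in S1/2-/- mice against 555 and 568 in WT mice at ZT16 and of 473 and 431 against 298 and 309 at ZT4. It was 0.30 for *Cdc37*, which brings kinases to HSP90 (adjusted p = 0.912), with 1431 and 1438 in S1/2-/- mice against 1392 and 1107 in WT mice at ZT16 and 1466 and 1376 against 1479 and 1538 at ZT4. It was -0.43 for *Clpp* (adjusted p = 0.873), with 903 and 1005 at ZT16 against 1059 and 1141 at ZT4 in S1/2-/- mice and 1129 and 1341 against 1072 and 1043 in WT mice. It was -0.34 for *Bag1*, a nucleotide exchange factor of HSP70 (adjusted p = 0.912), with 574 and 646 at ZT16 against 766 and 676 at ZT4 in S1/2-/- mice and 828 and 745 against 734 and 732 in WT mice.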

How the results depend on the processing

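Of the log2 differences of the tested member probe sets, 586 of 593 kept their sign under the other settings and 504 of 560 when single arrays were left out. Many of these values could not change. The filters, the trend, ANOVA, the block and a fit of only the groups compared leave a log2 difference as it is. So does leaving out an array outside the groups compared. When single arrays were left out, 29 differences turned sign at least once, the largest of them 0.59 in the main fit. With 2 mice per group the limits lie in the arrays, and the number of calls moved strongly. The call of *Hspa1a* between the genotypes over both times, the only one among the members, was kept under 6 of 8 other settings and lost without the variance trend (0 members, adjusted p = 0.118) and under ANOVA (0 members, adjusted p = 0.181), with adjusted p from 0.00870 to 0.181 over all alternatives. Over all tested probe sets, this comparison gave 19 calls, 11 without a filter and 11 with median centring. The WT time change, with 1 call, gave 0 without a filter, 4 at the 60th percentile, 5 with median centring and 2 with only its groups fitted. The genotypes at ZT4, with 7 calls, gave 12 at the 60th percentile, 11 with median centring and 13 with only these groups. At ZT16, with 1 call, there were 0 without a filter and 6 at the 60th percentile. Without the trend and under ANOVA, 0 calls were left in each of these 4 comparisons. With the replicate number as a block, whose 6 same-numbered pairs correlated by -0.001 to 0.10, the WT time change gave 10 calls, the difference of the time changes 2, ZT4 13 and ZT16 0, and *Hspa1a* stayed called (adjusted p = 0.0232). When single arrays were left out, the calls ranged from 0 to 1 for the S1/2-/- time change, 0 to 100 for the WT time change, 0 to 17 for their difference, 0 to 14 at ZT4, 0 to 156 at ZT16, 0 to 88 for the genotypes and 0 to 36 for the times, and among the members from 0 to 1 at ZT16 and over both times. Without the WT mouse of ZT16 numbered 1, which leaves the mouse with 858 for *Cirbp* alone in its group, *Hspa1a* was also called at ZT16 (adjusted p = 0.0441), and of the other chaperones 0 to 1 were called, namely *Hspa2*, in the WT time change, the difference of the time changes and the genotypes at ZT16 (adjusted p = 0.0162, 0.0469 and 0.0183). The correlation of *Hspa1b* and *Cirbp* lay between -0.42 and 0.17.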

Other observations

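The genes next to *Hspa1a* and *Hspa1b* on chromosome 17 had no common direction. Of the 25 nearest tested genes on each side, 26 were higher and 24 lower in S1/2-/- than in WT cortex over both times, with a median log2 difference of 0.01 and 0 called in limma. An unadjusted p under 0.05 was found for 4 of the 50, against 12.4% of all tested probe sets, *Ddah2* (log2 difference 0.39) and *Bag6* (0.45) in the higher and *Ier3* (-0.55) and *Flot1* (-0.19) in the lower direction. The histocompatibility gene *H2-T18*, which was not among these 50, was called higher in the same comparison (log2 difference 1.36 ± 0.20, adjusted p = 0.0273 in limma).

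The genes whose log2 signals ran most like *Hspa1a* over the 8 arrays, chosen after its values were seen, were *Rasgrf1* (r = 0.97), *H2-D1* (0.97), *Lmna* (0.96), *Fth1* (0.96) and *Psip1* (0.95). *Rasgrf1*, an exchange factor for Ras in neurons, gave 2787 and 2615 in S1/2-/- mice at ZT16 and 2527 and 2414 at ZT4, against 3325 and 3261 in WT mice at ZT16 and 3182 and 3186 at ZT4. One *H2-D1* probe set, for a class I histocompatibility gene, gave 496 and 511 in S1/2-/- mice at ZT16 and 527 and 473 at ZT4, against 699.5 and 757 in WT mice at ZT16 and 700.0 and 696 at ZT4. In both probe sets every mutant value lay below every WT value, as in *Hspa1a*, whose likeness chose them, and as in 3.74% of all tested probe sets. A second tested *H2-D1* probe set differed from this, with log2 differences between S1/2-/- and WT cortex of 0.12 at ZT16, -0.16 at ZT4 and -0.02 over both times. *H2-D1* lies in the same histocompatibility region of chromosome 17 as the *Hspa1* genes, and both its probe sets are marked as shared within a gene family.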
